A study of Mus musculus with 8 samples.

Results

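The expression of 10 genes of cellular iron handling was followed through 8 RNA-seq libraries of mouse 4T1 cells: Tfrc, Slc11a2, Steap3 and Slc39a14 for uptake, Fth1, Ftl1 and Ncoa4 for storage, Slc40a1 for export, and Ireb2 and Aco1 for regulation. They were matched by gene symbol, and all 10 were found among the 24677 genes listed in the deposited tables. 4T1 is a triple negative mammary carcinoma line, and all cells grew in DMEM with fetal bovine serum and received no treatment. The comparisons ask how expression differs when Tyro3, a receptor tyrosine kinase, is raised in parental cells or removed from cells that resist anti-PD1.

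The 4 groups hold 2 libraries each. Tyro3 KO cells are anti-PD1 resistant 4T1 cells in which Tyro3 was knocked out. Resistant cells are anti-PD1 resistant 4T1 cells of control genotype. Tyro3 OE cells are parental 4T1 cells that overexpress Tyro3. Parental cells are 4T1 cells of control genotype. No source used here tells how Tyro3 was delivered or deleted, or whether a line is 1 clone. Words such as raised, lowered, rose, fell or effect, with overexpression or knockout, therefore name differences between these lines. The labels leave unsaid whether libraries of one group stem from different cultures; p-values therefore reflect only library-to-library spread, which could be technical. In bulk RNA, a change in the share of cells with a transcript and a change in transcript per cell cannot be told apart.

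Iron reaches most cells bound to transferrin, which is taken up by the transferrin receptor Tfrc; in the endosome a STEAP reductase converts ferric to ferrous iron, and Slc11a2 (DMT1) or Slc39a14 (ZIP14) carries it into the cytosol. Surplus iron is kept in ferritin, a shell of heavy chains (Fth1, the ferroxidase) and light chains (Ftl1), and Ncoa4 carries ferritin to lysosomes for release. Ferroportin, encoded by Slc40a1, is the exporter of iron from the cell. The iron regulatory proteins Aco1 (IRP1) and Ireb2 (IRP2) bind hairpins called iron-responsive elements (IREs) when iron is low; binding in the 5′ UTR blocks translation, as in ferritin and ferroportin messages, and binding in the 3′ UTR of the Tfrc message protects it from decay.

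The hairpins are shown because they separate members with a 5′ element from members with a 3′ element. GENCODE M21 transcripts (GRCm38) were searched, on the transcript strand, for a C, 5 bases, the 6-base loop CAGTGN and 5 bases that pair with the 5 before the loop, G-U pairs allowed. The loop is in capitals, and each sequence is 17 bases long. Fth1, Ftl1 and Slc40a1 each had 1 match in the 5′ UTR, and Tfrc had 4 in the 3′ UTR.
Fth1, 5′ UTR, chr19:9982738-9982754, plus strand: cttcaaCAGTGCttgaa
Ftl1, 5′ UTR, chr7:45459785-45459801, minus strand: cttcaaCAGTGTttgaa
Slc40a1, 5′ UTR, chr1:45925471-45925487, minus strand: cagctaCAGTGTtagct
Tfrc, 3′ UTR, chr16:32631225-32631241, plus strand: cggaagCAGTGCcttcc
Tfrc, 3′ UTR, chr16:32631604-32631620, plus strand: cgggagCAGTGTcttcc
Tfrc, 3′ UTR, chr16:32631669-32631685, plus strand: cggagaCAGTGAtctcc
Tfrc, 3′ UTR, chr16:32631716-32631732, plus strand: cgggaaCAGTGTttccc
Slc11a2, 3′ UTR, chr15:100395159-100395175, minus strand, 1 unpaired position: cagagcCAGTGTgtttc
Of 21901 protein-coding genes, 0.146% had a fully paired match in a 5′ UTR and 0.589% in a 3′ UTR. With up to 1 unpaired position, as in Slc11a2, the shares were 1.02% and 4.01%. No match was found for Steap3, Ncoa4, Slc39a14, Ireb2 or Aco1. A match describes letters in a transcript and does not show that a protein binds there.

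The libraries held 18001482 to 27261282 assigned reads, and all 10 members passed the filter on low counts with which 14513 genes were tested. Levels are given in CPM (depth-scaled read counts, TMM), and "called" means an adjusted p under 0.05 (edgeR, quasi-likelihood; Benjamini-Hochberg over all genes tested). Tyro3 followed the labels, with 3.81 and 3.99 CPM in Tyro3 KO cells, 20.7 and 21.2 CPM in resistant cells, 107 and 103 CPM in Tyro3 OE cells, and 25.7 and 24.4 CPM in parental cells. Its level was slightly lower in resistant than in parental cells (log2 fold change -0.25, SE 0.08, adjusted p = 0.00586). Of 8 epithelial markers, Krt8 and Krt18 made up nearly all of a summed 496 to 939 CPM, while Epcam (0.13 to 1.32 CPM) and Cdh1 (0.25 to 4.01 CPM) were close to absent. The 6 listed fibroblast markers, of 7, summed to 104 and 105 CPM in Tyro3 KO cells, 190.4 and 175 CPM in resistant cells, 208 and 201 CPM in Tyro3 OE cells, and 97.7 and 97.3 CPM in parental cells. They thus split the libraries as Tfrc and Slc40a1 do, mainly through Pdgfra and Pdgfrb, with Col3a1, Thy1 and Fap at 0.18 CPM or less; their part in the iron results was not tested. The 8 listed macrophage markers, of 10, summed to 60.5 and 67.4 CPM in Tyro3 KO cells, 34.3 and 29.8 CPM in resistant cells, 47.1 and 44.8 CPM in Tyro3 OE cells, and 65.7 and 60.6 CPM in parental cells. Cd14 and Cd68 carried most of that sum, and Ptprc and Adgre1 stayed at 0.13 CPM or less in every library. The summed lymphocyte, endothelial and erythroid markers stayed at 0.271, 1.31 and 1.64 CPM or less.

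Tfrc moved most clearly of the well-expressed members, in opposite directions with overexpression and knockout. Its level was 797 and 813 CPM in Tyro3 KO cells and 159.7 and 158 CPM in resistant cells. In Tyro3 OE cells it was 222 and 207 CPM, against 743 and 719 CPM in parental cells. The Tyro3 KO and parental libraries were high and the resistant and Tyro3 OE libraries low, with no overlap between those sets. The Tfrc message was 3.41-fold lower in Tyro3 OE than in parental cells (log2 fold change -1.77, SE 0.04, adjusted p = 7.33e-34). It was 5.06-fold higher in Tyro3 KO than in resistant cells (2.34, SE 0.04, adjusted p = 1.3e-38). Resistant cells were 4.59-fold below parental cells (-2.20, SE 0.04, adjusted p = 1.39e-37). Tfrc was thus lowest in resistant cells, where Tyro3 itself was not raised (20.7 and 21.2 CPM, against 25.7 and 24.4 CPM in parental cells). Tyro3 KO cells stood only slightly above parental cells (log2 fold change 0.14, SE 0.04, adjusted p = 0.00448). That last call was lost without Tyro3 KO replicate 2 (0.12, adjusted p = 0.072) or without parental replicate 2 (0.11, adjusted p = 0.0647). In the fold changes below, the comparisons of Tyro3 OE cells and of resistant cells with parental cells share the parental libraries, and those of Tyro3 KO cells with resistant cells and of resistant cells with parental cells share the resistant libraries.

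**Figure D1:**
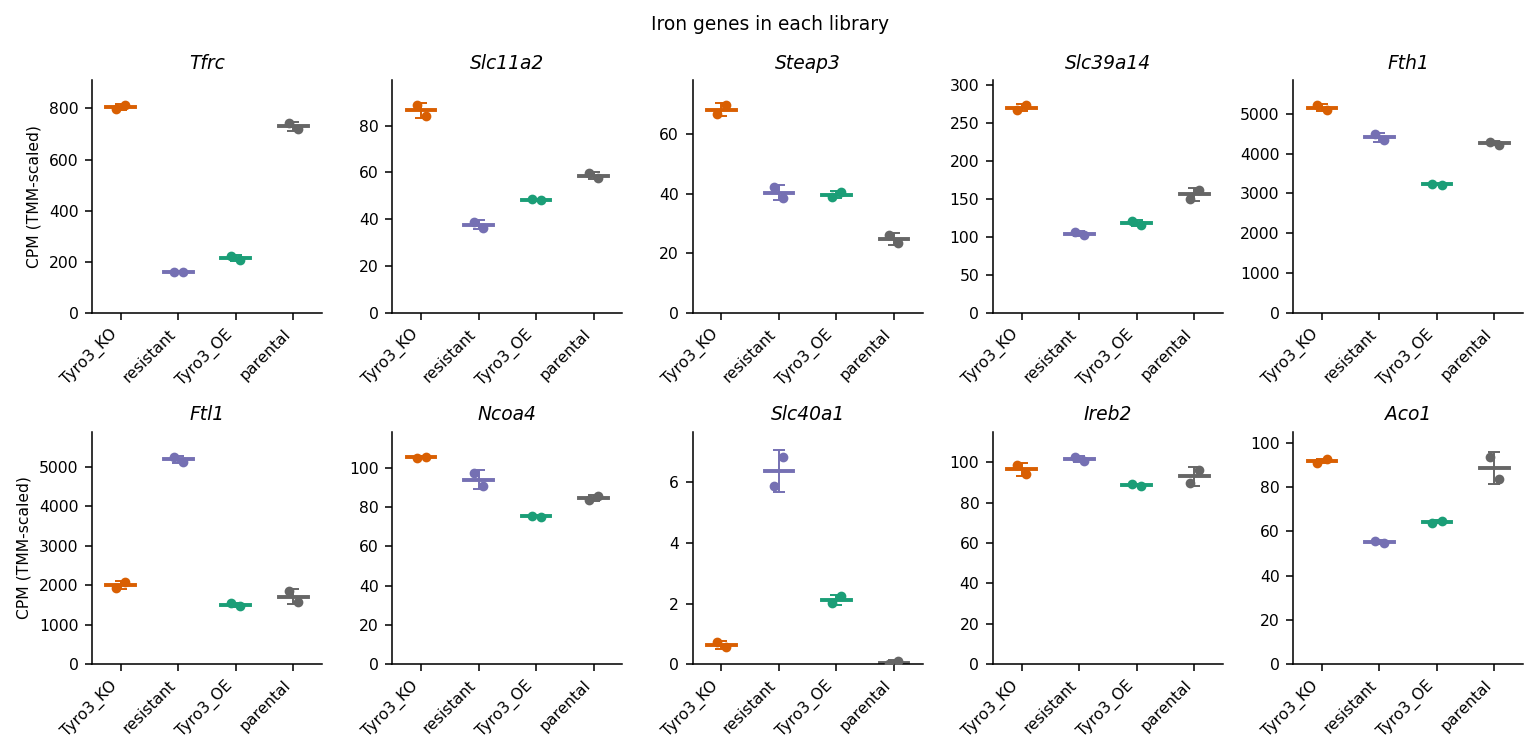
CPM (vertical axes, TMM-scaled, each from 0) of the 10 iron genes in the Tyro3 KO, resistant, Tyro3 OE and parental libraries. Points are libraries, wide bars group means and thin bars ± SD (n = 2). Tfrc is high in Tyro3 KO and parental cells, Ftl1 stands apart in resistant cells at 5259 and 5129 CPM, and Ireb2 differs little.

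The pair of ferrous iron transporters moved with Tfrc, by smaller factors. Slc11a2, which carries iron out of the endosome, had 88.7 and 84.3 CPM in Tyro3 KO cells, 38.9 and 36.2 CPM in resistant cells, 48.6 and 48.2 CPM in Tyro3 OE cells, and 59.6 and 57.6 CPM in parental cells. Slc39a14, which also carries zinc and manganese, had 267 and 274 CPM in Tyro3 KO cells, 107 and 102 CPM in resistant cells, 121 and 116 CPM in Tyro3 OE cells, and 150.0 and 162 CPM in parental cells. For both genes the order of the groups was Tyro3 KO, parental, Tyro3 OE and resistant, with no overlap between any of them. Slc11a2 rose with knockout (log2 fold change 1.21, SE 0.06, adjusted p = 6.01e-22) and fell with overexpression (-0.28, SE 0.06, adjusted p = 0.000157). Slc39a14 likewise rose with knockout (1.37, SE 0.05, adjusted p = 3.59e-29) and fell with overexpression (-0.40, SE 0.05, adjusted p = 1.83e-10). Both were lower in resistant than in parental cells, by log2 fold changes of -0.64 for Slc11a2 and -0.58 for Slc39a14 (adjusted p = 5.1e-12 and 4.31e-15). Both stood above the parental level after knockout, by 0.56 for Slc11a2 and 0.79 for Slc39a14 (adjusted p = 1.62e-10 and 3.32e-19). The fall of Slc11a2 with overexpression was not called when libraries were scaled by their totals alone (-0.05, adjusted p = 0.505). Reads of Gm5475, which overlaps exons of Slc11a2 on the other strand, numbered 0 to 6 per library, against 802 to 2283 for Slc11a2.

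Steap3, the ferrireductase of the transferrin cycle, did not follow the transporters. It had 66.6 and 69.6 CPM in Tyro3 KO cells, 42.0 and 38.6 CPM in resistant cells, 38.7 and 40.6 CPM in Tyro3 OE cells, and 26.2 and 23.4 CPM in parental cells. The parental libraries were the lowest and the Tyro3 KO libraries the highest, while the Tyro3 OE and resistant libraries overlapped. It rose with overexpression (log2 fold change 0.68, SE 0.08, adjusted p = 1.98e-10) and also with knockout (0.76, SE 0.07, adjusted p = 1.43e-13). It was also higher in resistant than in parental cells (0.70, SE 0.08, adjusted p = 7.43e-11). Summed over the 4 uptake genes, the level was 1219 and 1241 CPM in Tyro3 KO cells, 347 and 335 CPM in resistant cells, 430.01 and 412 CPM in Tyro3 OE cells, and 979 and 962 CPM in parental cells, a sum carried mostly by Tfrc.

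**Figure D2:**
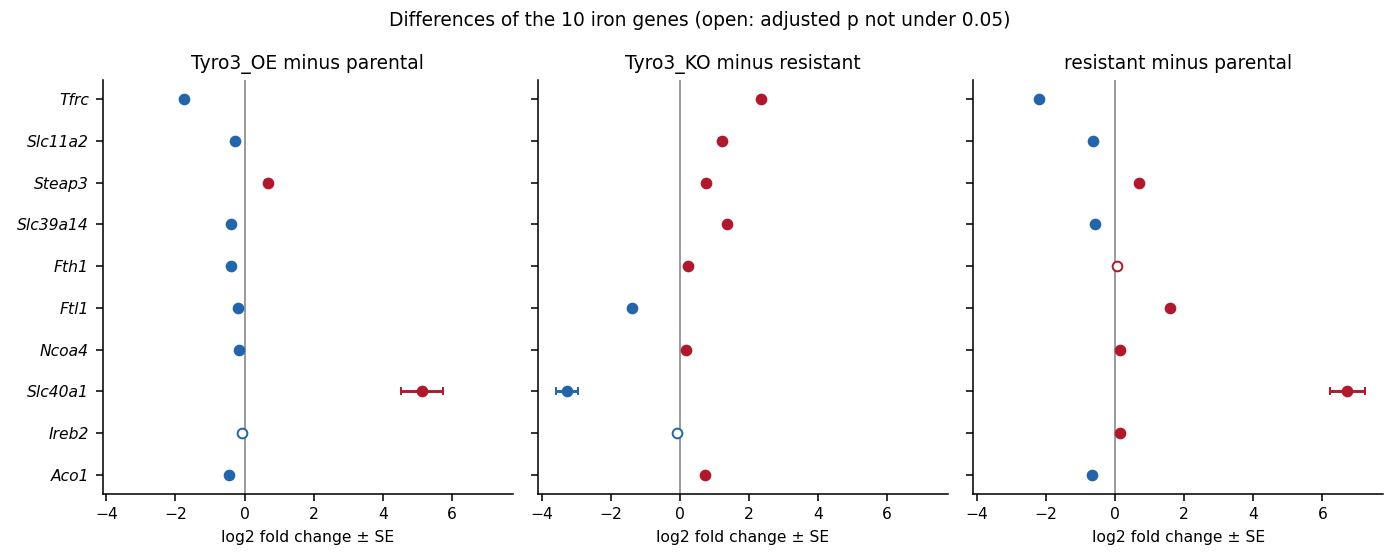
Log2 fold changes ± SE (horizontal axes, shared scale) of the 10 iron genes for Tyro3 OE minus parental, Tyro3 KO minus resistant and resistant minus parental cells. Red is higher, blue lower, and open points have an adjusted p of 0.05 or more. Tfrc lies at -1.77, 2.34 and -2.20, and Slc40a1 at 5.14, -3.27 and 6.71.

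The 2 ferritin chains changed in different ways. Fth1, the heavy chain, had 5216 and 5098 CPM in Tyro3 KO cells, 4493 and 4332 CPM in resistant cells, 3244 and 3223 CPM in Tyro3 OE cells, and 4297 and 4225 CPM in parental cells. The resistant and parental libraries lay close together, Tyro3 OE cells below them and Tyro3 KO cells above. Fth1 fell with overexpression (log2 fold change -0.40, SE 0.04, adjusted p = 1.39e-11) and rose with knockout (0.23, SE 0.04, adjusted p = 5.18e-06). The difference between resistant and parental cells was not called (0.05, SE 0.04, adjusted p = 0.274). It was called without resistant replicate 2 (0.08, adjusted p = 0.0437) and, at a larger size, under upper-quartile scaling (0.21, adjusted p = 6.14e-07).

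Ftl1, the light chain that favours iron core formation, stood apart in resistant cells. It had 1929 and 2075 CPM in Tyro3 KO cells and 5259 and 5129 CPM in resistant cells. It had 1542 and 1473 CPM in Tyro3 OE cells and 1855 and 1572 CPM in parental cells. The resistant libraries lay far above all 6 others, which differed among themselves by much less. Ftl1 fell 2.59-fold with knockout (log2 fold change -1.38, SE 0.05, adjusted p = 3.29e-27) and was 3.03-fold higher in resistant than in parental cells (1.60, SE 0.05, adjusted p = 1.37e-29). In Tyro3 OE cells it was slightly lower (-0.18, SE 0.05, adjusted p = 0.00125), a call that was lost without parental replicate 1 (-0.07, adjusted p = 0.259) and in DESeq2 (-0.19, adjusted p = 0.085), and with scaling by library totals alone the sign turned (0.04). In the authors' deposited table the adjusted p of Ftl1 for Tyro3 OE against parental cells was 0.198. Tyro3 KO cells were slightly above parental cells (0.22, adjusted p = 0.000314). That call was lost in DESeq2 (0.22, adjusted p = 0.0652), with no filter (0.23, adjusted p = 0.0706) and without parental replicate 2 (0.11).

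Other abundant transcripts were also high in the resistant libraries. Ribosomal protein genes took 8.81% and 9.12% of the reads of resistant cells and 5.10% to 6.08% elsewhere, and mitochondrially encoded genes took 3.23% and 2.98% in resistant cells and 1.99% to 2.42% elsewhere. Their part in the Ftl1 result was not tested. Near-identical copies of Ftl1 can share its reads. Ftl1-ps1, the most counted of them, had 313 and 355 reads in Tyro3 KO cells, 634 and 878 in resistant cells, 273 and 195 in Tyro3 OE cells, and 233 and 209 in parental cells. The 3 Ftl1 copies summed to 0.551% to 0.883% of the Ftl1 reads. How reads that match both Ftl1 and a copy were counted is not known. These shares therefore do not bound the uncertainty of the Ftl1 values or of ratios drawn from them. Gm10252, antisense to part of Ftl1, had 8 to 29 reads per library.

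The balance of the 2 chains followed Ftl1. Per unit of length, the ratio of Ftl1 to Fth1 in the authors' deposited FPKM (fragments per kilobase of transcript, scaled to depth) was 0.239 and 0.263 in Tyro3 KO cells, 0.757 and 0.765 in resistant cells, 0.307 and 0.295 in Tyro3 OE cells, and 0.279 and 0.241 in parental cells. Light chain was therefore 43.1% and 43.3% of ferritin FPKM in resistant cells and 19.3% to 23.5% in the other 6 libraries. Ferritin of both chains took 0.675% and 0.677% of reads in Tyro3 KO cells, 1.002% and 0.991% in resistant cells, 0.521% and 0.514% in Tyro3 OE cells, and 0.576% and 0.539% in parental cells. Read against ferritin, Tfrc had 11.1 and 11.3 reads per 100 ferritin reads in Tyro3 KO cells and 1.64 and 1.67 in resistant cells. The same ratio was 4.64 and 4.41 in Tyro3 OE cells and 12.1 and 12.4 in parental cells. With 2 libraries a group an exact permutation test of such ratios cannot give a two-sided p below 0.333, so they are given without a test.

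**Figure D3:**
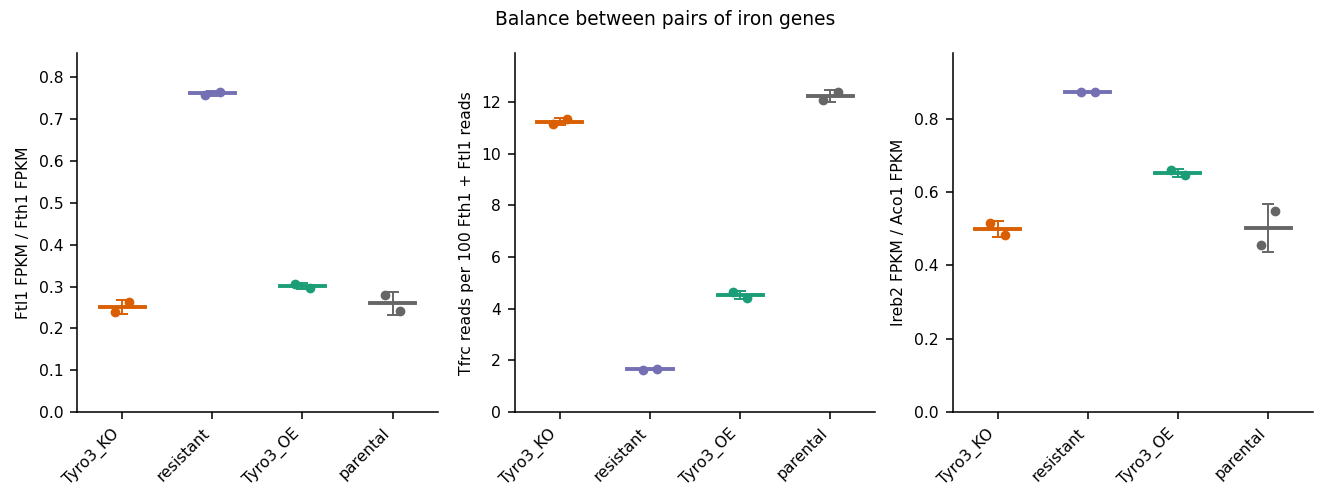
Ftl1 over Fth1 FPKM, Tfrc reads per 100 ferritin reads, and Ireb2 over Aco1 FPKM (vertical axes, from 0) in the Tyro3 KO, resistant, Tyro3 OE and parental libraries; points are libraries, bars group means ± SD (n = 2). The resistant libraries are highest in the ferritin chain ratio (0.757 and 0.765) and lowest in the Tfrc ratio (1.64 and 1.67).

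Ncoa4, the cargo receptor that sends ferritin to lysosomes, changed little. It had 105 and 106 CPM in Tyro3 KO cells, 97.6 and 90.6 CPM in resistant cells, 75.6 and 75.1 CPM in Tyro3 OE cells, and 83.7 and 85.9 CPM in parental cells. The groups did not overlap, and their order was Tyro3 KO, resistant, parental and Tyro3 OE. Its log2 fold change was -0.17 with overexpression (SE 0.05, adjusted p = 0.00383), 0.16 with knockout (SE 0.05, adjusted p = 0.00296) and 0.15 for resistant against parental cells (SE 0.05, adjusted p = 0.00935). The knockout value was near 0 and not called under upper-quartile scaling (0.016, adjusted p = 0.769) and with library totals only (0.029, adjusted p = 0.582). Leaving out resistant replicate 2 also ended the knockout call (0.11, adjusted p = 0.0801), and the call of resistant against parental cells was lost without resistant replicate 1 (0.09, adjusted p = 0.191) or parental replicate 1 (0.12, adjusted p = 0.0899). The overexpression value was not called under upper-quartile scaling (-0.03, adjusted p = 0.598) and turned to 0.06 with library totals only.

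Slc40a1, the iron exporter, was scarce in every library and close to absent in parental cells. Its raw reads were 19 and 11 in Tyro3 KO cells, 133 and 152 in resistant cells, 50 and 56 in Tyro3 OE cells, and 0 and 2 in parental cells. Its level was 0.74 and 0.56 CPM in Tyro3 KO cells, 5.88 and 6.85 CPM in resistant cells, 2.01 and 2.24 CPM in Tyro3 OE cells, and 0 and 0.10 CPM in parental cells. The 4 groups were separate from each other, in the order resistant, Tyro3 OE, Tyro3 KO and parental. Both parental libraries were under the limit that 3 reads set, 0.178 and 0.154 CPM. Relative to the 2 parental reads and scaled for depth, the ratio was 38.7 in Tyro3 OE cells (exact 95% interval 10.4 to 323, counting error only). The same ratio was 116 in resistant cells (31.7 to 959) and 12 in Tyro3 KO cells (3.04 to 103). Slc40a1 rose with overexpression (adjusted p = 4.19e-10) and was higher in resistant than in parental cells (adjusted p = 4.57e-16). It fell with knockout (log2 fold change -3.27, SE 0.31, adjusted p = 5.56e-13) and stayed above parental cells (adjusted p = 0.00037). The fitted log2 fold changes against parental cells, 5.14, 6.71 and 3.45, depend on these 2 reads, and became 8.58, 10.2 and 6.90 without parental replicate 2.

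The 2 iron regulatory proteins parted. Aco1, which is a cytosolic aconitase when it holds an iron-sulfur cluster and an IRE-binding protein when it does not, had 91.0 and 92.5 CPM in Tyro3 KO cells, 55.8 and 54.6 CPM in resistant cells, 63.9 and 64.8 CPM in Tyro3 OE cells, and 93.7 and 83.4 CPM in parental cells. Its libraries were high and low in the same groups as those of Tfrc, with the Tyro3 KO libraries lying between the 2 parental ones. Aco1 fell with overexpression (log2 fold change -0.46, SE 0.06, adjusted p = 1.25e-09), rose with knockout (0.73, SE 0.06, adjusted p = 1.12e-15) and was lower in resistant than in parental cells (-0.68, SE 0.06, adjusted p = 2.57e-14). The level after knockout was not called different from that of parental cells (0.05, SE 0.05, adjusted p = 0.499).

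Ireb2, whose protein is degraded when iron is ample, had 98.7 and 94.3 CPM in Tyro3 KO cells, 103 and 100.5 CPM in resistant cells, 89.0 and 88.2 CPM in Tyro3 OE cells, and 89.8 and 96.4 CPM in parental cells. All 8 libraries lay within a narrow range. Neither overexpression (log2 fold change -0.07, SE 0.05, adjusted p = 0.205) nor knockout (-0.07, SE 0.05, adjusted p = 0.174) was called. The knockout value was larger and called under upper-quartile scaling (-0.22, adjusted p = 8.46e-05), with library totals only (-0.21, adjusted p = 0.000157) and with at least 50 reads in 2 libraries (-0.13, adjusted p = 0.0113). Resistant cells were slightly above parental cells (0.13, SE 0.05, adjusted p = 0.0254), a call that was lost in DESeq2 (adjusted p = 0.0711) and without any of 4 libraries: Tyro3 OE replicate 1 (0.12), Tyro3 KO replicate 2 (0.11), resistant replicate 1 (0.10) or parental replicate 1 (0.07). In the authors' FPKM the ratio of Ireb2 to Aco1 was 0.514 and 0.484 in Tyro3 KO cells, 0.874 and 0.873 in resistant cells, 0.660 and 0.646 in Tyro3 OE cells, and 0.455 and 0.548 in parental cells. Per unit of length Aco1 was thus the more abundant message in every library, by least in resistant cells.

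Levels of different genes were compared per length, in FPKM. Fth1 ranked highest in every group, followed by Ftl1 and then Tfrc, and Slc40a1 came last in every group. Mean FPKM of Fth1 was 5802 in Tyro3 KO cells, 4987 in resistant cells, 3649 in Tyro3 OE cells and 4781 in parental cells. Mean FPKM of Tfrc was 127 in Tyro3 KO cells, 25.2 in resistant cells, 33.9 in Tyro3 OE cells and 115 in parental cells. In Tyro3 KO cells Slc39a14 held the fourth place, at 25 FPKM, ahead of Aco1 at 19.9 FPKM. In the other groups Aco1 held it, at 12 FPKM in resistant cells, 14.0 FPKM in Tyro3 OE cells and 19.1 FPKM in parental cells. Among the places below, neighbours overlapped between Ncoa4 and Slc39a14 in resistant cells and between Slc11a2 and Ncoa4 in parental cells.

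Counted over the members, overexpression raised 2 of 10 and lowered 7, where 66.2% of all genes tested were called, 32.5% higher and 33.7% lower. Knockout raised 7 and lowered 2, where 72.7% of all genes were called, 37.1% higher and 35.6% lower. Resistant against parental cells, 5 were higher and 4 lower, where 71.2% of all genes were called, 35.1% higher and 36.1% lower. The total of 9 called members in each comparison is thus to be read against a majority of all genes. Groups did not overlap for any of the 10 members in these 3 comparisons, nor for 82.5%, 85.0% and 84.2% of all genes tested. The median log2 fold change of the members was -0.23 with overexpression and 0.48 with knockout, beside 0.03 and -0.02 over all genes tested. For resistant against parental cells it was 0.09, beside 0.03. Changes of at least 1 on the log2 scale were found in 2, 5 and 3 members in those 3 comparisons, beside 21.4%, 29.7% and 30.4% of all genes.

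Set against each other over comparisons that share no library, the overexpression and knockout effects were called in opposite directions for 7 of 10 members: Tfrc, Slc11a2, Slc39a14, Fth1, Ncoa4, Slc40a1 and Aco1, of which Ncoa4 was called in neither comparison under upper-quartile scaling. Over all genes the share was 48.4%. Ftl1 was lower and Steap3 higher in both. Tyro3 KO cells were also compared with parental cells. Of the 10, 8 were called higher in Tyro3 KO cells than in parental cells and 0 lower, where 36.3% of all genes were called, 18.1% higher and 18.3% lower, and Aco1 and Ireb2 were not called. The largest of those differences outside Slc40a1 was that of Steap3 (log2 fold change 1.46, SE 0.07, adjusted p = 1.59e-20). Resistant against Tyro3 OE cells, 5 members were higher and 4 lower, where 55.3% of all genes were called, 27.0% higher and 28.3% lower. Ftl1 was 3.45-fold higher there (1.78, SE 0.05, adjusted p = 2.28e-30), and Tfrc was lower (-0.43, SE 0.04, adjusted p = 9.05e-12).

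The signed difference of the 2 effects was tested in the same edgeR fit; it adds up effects of opposite sign and does not compare their sizes. The overexpression effect minus the knockout effect was positive for 2 members, Ftl1 and Slc40a1, and negative for 6, where 76.4% of all genes were called, 38.1% positive and 38.2% negative. Ireb2 and Steap3 were not called. Lining the effects up by Tyro3 level, Tyro3 OE minus parental cells was set against resistant minus Tyro3 KO cells. A change shared by Tyro3 OE and Tyro3 KO cells would give the same value, and this contrast cannot tell them apart. That difference between backgrounds was called for 7 members, 5 positive and 2 negative, where 46.7% of all genes were called, 24.7% positive and 22.0% negative. Among the called members it was farthest from 0 for Ftl1 (-1.56, SE 0.07, adjusted p = 1.04e-22) and Steap3 (1.43, SE 0.10, adjusted p = 6.04e-16).

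**Figure D4:**
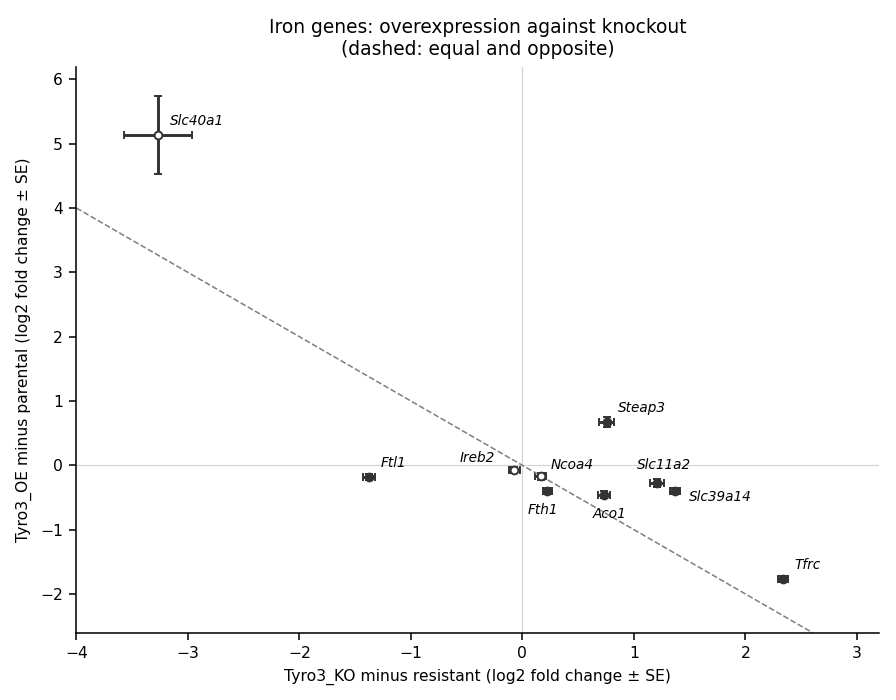
Log2 fold change ± SE of Tyro3 OE minus parental cells (vertical axis) against that of Tyro3 KO minus resistant cells (horizontal axis) for the 10 iron genes. The dashed line marks equal and opposite values; open points are Slc40a1, Ncoa4 and Ireb2, whose distance from it was not called, and Ftl1 (-1.38, -0.18) and Steap3 (0.76, 0.68) lie farthest from it among the filled points.

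Other genes of iron handling were counted over 10 lists of 120 symbols, of which 110 were listed and 101 tested. Overexpression raised 29 and lowered 45 of the 101, with a median log2 fold change of -0.14. That excess of falls depended on the scaling, with 38 higher and 37 lower under upper-quartile scaling and 40 higher and 33 lower with library totals only. Knockout raised 54 and lowered 29, with a median of 0.19; under upper-quartile scaling 41 rose and 41 fell, and with library totals only 42 rose and 39 fell. In resistant against parental cells 30 were higher and 43 lower, with a median of -0.13, but 42 were higher and 37 lower under upper-quartile scaling and 41 and 37 with library totals only. These shares stand beside the same background percentages of all genes as the members.

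Assembly of iron-sulfur clusters and of haem uses the imported iron. Of 11 cytosolic iron-sulfur assembly genes, 1 rose and 8 fell with overexpression and 6 rose and 2 fell with knockout. Nubp1, a scaffold protein of that machinery, averaged 38.5 CPM in Tyro3 KO cells and 17 CPM in resistant cells (log2 fold change 1.18, adjusted p = 4.53e-16). Ciapin1, which passes electrons to it, averaged 56.2 CPM in Tyro3 OE cells and 99.5 CPM in parental cells (-0.82, adjusted p = 3.36e-17). Of 24 genes of mitochondrial iron and iron-sulfur assembly, 3 rose and 14 fell with overexpression and 12 rose and 8 fell with knockout. Slc25a37, or mitoferrin, which carries iron into mitochondria, rose with overexpression and fell with knockout (log2 fold changes 0.52 and -0.52, adjusted p = 1.65e-15 and 6.76e-16). Of 12 haem synthesis genes, 2 rose and 6 fell with overexpression and 9 rose and 2 fell with knockout. Of all genes tested, 32.5% rose and 33.7% fell with overexpression, and 37.1% rose and 35.6% fell with knockout. Single lists were not recounted under the other scalings.

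Haem breakdown releases iron, and its inducible enzyme Hmox1 was, like Ftl1, highest in resistant cells. Hmox1 averaged 93.4 CPM in Tyro3 KO cells, 167 CPM in resistant cells, 60.7 CPM in Tyro3 OE cells and 94.2 CPM in parental cells. It fell with knockout (log2 fold change -0.84, adjusted p = 8.36e-21) and with overexpression (-0.63, adjusted p = 6.26e-15). Blvrb, a biliverdin reductase, was also lower after knockout (10.4 CPM in Tyro3 KO against 24.8 CPM in resistant cells, -1.25, adjusted p = 2.36e-13). Unlike Hmox1, Blvrb rose with overexpression (11.2 CPM in Tyro3 OE against 6.80 CPM in parental cells, 0.72, adjusted p = 1.41e-05). Of the 4 genes of haem breakdown, 1 rose and 2 fell with overexpression and 2 rose and 2 fell with knockout. Beside these counts, 32.5% of all genes tested rose and 33.7% fell with overexpression, and 37.1% rose and 35.6% fell with knockout.

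**Figure D5:**
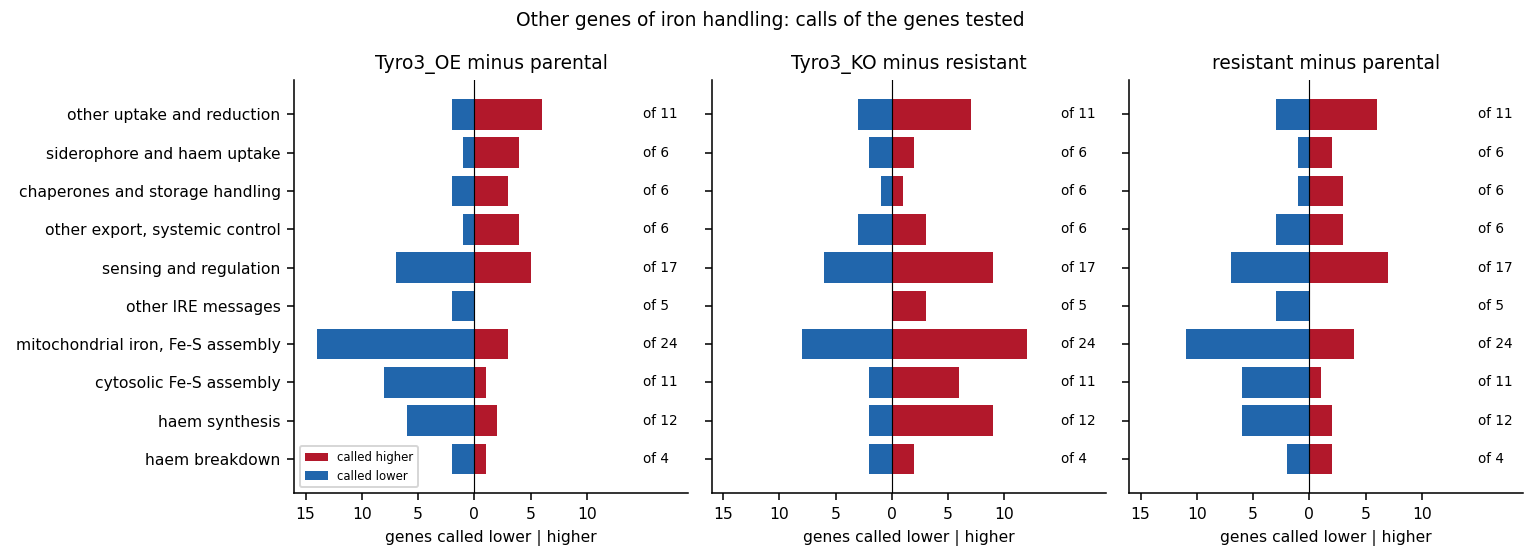
Number of genes called lower (blue, left) and higher (red, right) in 10 lists of iron genes that are not among the 10 members, for Tyro3 OE minus parental, Tyro3 KO minus resistant and resistant minus parental cells; the number tested stands at the right of each bar. In cytosolic iron-sulfur assembly 8 of 11 genes were lower with overexpression, beside 33.7% of all genes tested. In haem synthesis 9 of 12 were higher with knockout, beside 37.1% of all genes tested. Single lists were not recounted under other scalings.

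Of the uptake and export genes outside the members, Lcn2 and Cp had the smallest adjusted p with overexpression. Lcn2, which binds siderophores that carry iron, averaged 509 CPM in Tyro3 KO cells, 24.2 CPM in resistant cells, 914 CPM in Tyro3 OE cells and 60.2 CPM in parental cells. Like Steap3, it rose both with overexpression (log2 fold change 3.92, adjusted p = 5.76e-45) and with knockout (4.40, adjusted p = 8.3e-46). Cp, the ferroxidase ceruloplasmin that works beside ferroportin, averaged 293 CPM in Tyro3 KO cells, 578 CPM in resistant cells, 626 CPM in Tyro3 OE cells and 154 CPM in parental cells. It thus moved in the same directions as Slc40a1 in those comparisons (2.02 with overexpression, -0.98 with knockout, adjusted p = 1.29e-35 and 2.89e-25). Lrp1, a receptor that takes up haem bound to hemopexin, rose with overexpression (1.07, adjusted p = 1.59e-25) and fell with knockout (-0.93, adjusted p = 5.7e-24). Abcg2, which can export haem, rose with knockout (21.3 CPM in Tyro3 KO against 3.79 CPM in resistant cells, 2.49, adjusted p = 1.16e-21). Between Tyro3 OE and parental cells (means 21.3 and 21.7 CPM) Abcg2 was not called different (-0.02, adjusted p = 0.873).

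Lists close to iron sensing were mixed. Of 17 genes of sensing and regulation, 5 rose and 7 fell with overexpression and 9 rose and 6 fell with knockout. Over all genes tested, 32.5% rose and 33.7% fell with overexpression, and 37.1% rose and 35.6% fell with knockout. The lists that follow are to be read beside the same shares. Fbxl5, the ubiquitin ligase subunit that marks Ireb2 protein for degradation, rose with overexpression (104 CPM in Tyro3 OE against 72.3 CPM in parental cells, 0.53, adjusted p = 4.98e-12). With knockout Fbxl5 was also higher (85.4 CPM in Tyro3 KO against 77.1 CPM in resistant cells, 0.14, adjusted p = 0.014). Bach1, a haem-sensitive repressor of ferritin and Hmox1, averaged 29.6 CPM in Tyro3 KO cells and 53.3 CPM in resistant cells (-0.85, adjusted p = 2.79e-14). Pcbp1, a chaperone that hands iron to ferritin, fell with overexpression (-0.53, adjusted p = 3.13e-16) and rose with knockout (0.72, adjusted p = 5.35e-21). Of 5 other messages known or proposed to carry an IRE, 0 rose and 2 fell with overexpression and 3 rose and 0 fell with knockout. The remaining lists, with rises before falls, were other uptake genes (6 and 2 of 11 with overexpression, 7 and 3 with knockout), siderophore and haem uptake (4 and 1 of 6, then 2 and 2), chaperones (3 and 2 of 6, then 1 and 1), and other export and systemic control (4 and 1 of 6, then 3 and 3).

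Likeness of pattern was described by Pearson's r of log2 CPM over the 8 libraries, which fall into 4 groups, searched over 9746 genes and given without a test. Tfrc was nearest to Tbl3 and Fam96a (r = 0.9995 for both), Fth1 to Pdhb (0.9944), Ftl1 to mt-Atp6 (0.9919) and Slc11a2 to Arhgdib (0.9984). Slc40a1 was nearest to Gcc1 (0.9943), Steap3 to Mpzl1 (0.9902), Ncoa4 to Asph (0.9872), Slc39a14 to Uck2 (0.9949), Ireb2 to Nck1 (0.9811) and Aco1 to Hnrnpf (0.9973). Among the members, r was 0.985 between Tfrc and Aco1, 0.976 between Slc11a2 and Slc39a14, 0.953 between Fth1 and Ncoa4, -0.870 between Tfrc and Slc40a1, and 0.359 between Fth1 and Ftl1.

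The members lie at chr16:32608920-32632794 (Tfrc), chr15:100387898-100425072 (Slc11a2), chr1:120190757-120272705 (Steap3), chr14:70303469-70351425 (Slc39a14), chr19:9982703-9985092 (Fth1), chr7:45457944-45459884 (Ftl1), chr14:32159865-32179855 (Ncoa4), chr1:45908068-45926523 (Slc40a1), chr9:54863789-54912530 (Ireb2) and chr4:40143081-40198338 (Aco1), as the deposited tables give them on GRCm38, and each is listed as protein coding.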

How the data were processed

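RNA-seq libraries of 8 4T1 samples were deposited as 3 comparison tables, which hold raw read counts per gene, FPKM, counts normalized by the authors (a signal scale, not used here beyond checks) and the authors' log2 fold change, p-value and adjusted p. Per the submitters' processing notes, STAR, DESeq2 and the build GRCm38 were used; no source used here gives the counting program or its strand setting. The 3 deposited tables were joined by gene ID into 24677 genes, of which 20265 stood in all 3. A gene missing from one table had at most 1 read in any library that this table shared with another. A count listed nowhere for a library entered as 0. The Tyro3 OE and Tyro3 KO libraries each stood in a single table, so this bound does not cover them. Deposited read counts were fitted with edgeR 4.0.16 in R 4.3.3 (TMM scaling, filterByExpr, quasi-likelihood test, all 8 libraries in 1 fit), with Benjamini-Hochberg adjustment over 14513 genes and a threshold of 0.05. The biological coefficient of variation was 3.51%. Standard errors are the log2 fold change divided by the root of F. The fit was tested on simulated data in which few genes differed, as many up as down. These data differ in far more genes, so that run cannot test the scaling. The authors' FPKM were used only to compare genes per length.

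The members and the other gene lists were chosen with earlier results of these data known. Genes named from the other lists are among the up to 4 called genes per list and comparison with the smallest adjusted p; some are not reported here. Alternatives were other scalings, DESeq2 1.42.0, other filters, groups fitted alone, a replicate block, each library left out, ferritin copies summed with their parent genes and, added after the data were seen, a minimum change of 0.5 and the difference between backgrounds. Same-numbered replicates did not deviate together (correlations -0.00137 to 0.0342), and no 2 libraries of a group agreed within sampling noise (chi-square over degrees of freedom 2.02 to 5.68).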

Additional observations from a re-analysis of the deposited data

Results flagged for a closer look

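The difference between higher and lower Tyro3 was compared between the parental background (Tyro3 OE minus parental) and the resistant background (resistant minus Tyro3 KO). This was a contrast in the edgeR fit, added after the data were seen. It equals the sum of Tyro3 OE and Tyro3 KO cells minus the sum of resistant and parental cells. A change shared by Tyro3 OE and Tyro3 KO cells therefore cannot be told apart from a difference between backgrounds. A positive value means that the signed difference in the parental background was the higher one. The difference between backgrounds was called for 7 of 10 members, where 46.7% of all genes tested were called, 24.7% positive and 22.0% negative. For Ftl1 it was -1.56 on the log2 scale (adjusted p = 1.04e-22), since Ftl1 was -0.18 in the parental background and fell by 1.38 with knockout. For Steap3 it was 1.43 (adjusted p = 6.04e-16), the gene being higher both with overexpression and after knockout. For Slc39a14 it was 0.97 and for Slc11a2 0.93, both with larger differences in the resistant background. For Tfrc it was 0.57 (adjusted p = 3.04e-11), the difference being larger in the resistant background. For Aco1 it was 0.27 (adjusted p = 0.00391), which was not called without parental replicate 2 (0.19, adjusted p = 0.0671). For Fth1 it was -0.17 (adjusted p = 0.0128), which was not called without Tyro3 OE replicate 1 (adjusted p = 0.07), Tyro3 OE replicate 2 (0.0704) or Tyro3 KO replicate 2 (0.0878). It was not called for Slc40a1 (1.87, adjusted p = 0.0883), which was called without parental replicate 2 (5.32, adjusted p = 0.0364).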

How the results depend on the processing

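Over the 3 main comparisons, 481 of 510 repeats of a member's result kept their direction and their side of the threshold, 18 lost the call, 7 gained it and 4 changed sign. The median of all genes moved to 0.17, -0.17 and 0.19 (log2) under upper-quartile scaling and to 0.26, -0.16 and 0.18 with library totals only, for Tyro3 OE minus parental, Tyro3 KO minus resistant and resistant minus parental cells. The share of calls that were higher was 49.1%, 51.1% and 49.3% with TMM, 60.3%, 41.8% and 58.9% under upper-quartile scaling, and 66.9%, 42.5% and 58.6% with totals; in these 3 comparisons the directions of Tfrc, Slc40a1 and Steap3 held under each of those scalings. Members lower in Tyro3 OE than in parental cells numbered 7, but 4 with totals and 1 with a change of at least 0.5. Members higher in resistant than in parental cells numbered 5, but 3 with no filter, 3 with a change of at least 0.5, and 3 to 6 when each library was left out. With that minimum change, 4 members were higher in Tyro3 KO than in parental cells, and 2 were higher and 0 lower in resistant than in Tyro3 OE cells. For the overexpression effect minus the knockout effect, 2 members were positive, but 4 with totals. For the difference between backgrounds, 2 members were negative, but 1 with totals, 1 with the minimum change, and 1 to 3 with libraries left out. Signs turned near 0. For Tyro3 OE minus parental, Ireb2 was 0.0678 under upper-quartile scaling and 0.156 with totals (adjusted p = 0.00481), Ftl1 0.0430 and Ncoa4 0.0576 with totals. For Tyro3 KO minus parental, Aco1 was -0.0315 to 0.136 with libraries left out. For resistant minus Tyro3 OE, Steap3 was -0.0504 with totals, -0.00246 with no filter and -0.0419 to 0.0864 with libraries left out. For the overexpression effect minus the knockout effect, Ireb2 was -0.00385 under RLE scaling, -0.00304 in DESeq2, -0.0643 with no filter and -0.0619 to 0.0421 with libraries left out. Steap3 was 0.213 under upper-quartile scaling, 0.287 with totals and 0.0269 with at least 50 reads in 2 libraries, and Ncoa4 was 0.0287 with totals. For the difference between backgrounds, Ncoa4 was 0.0864 with totals, 0.0268 with no filter and -0.0620 to 0.0515 with libraries left out. The cause was not tested. Replicate numbers did not pair the libraries, and the replicate block changed 0 of 70 results of members, with Tfrc at -1.77 for Tyro3 OE minus parental. Depth limits Slc40a1: 3 reads correspond to 0.117 to 0.178 CPM.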
